A study of Drosophila melanogaster with 4 samples.

Results

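Of the 20574 enriched clusters in the combined list of this Drosophila melanogaster POF ChIP-seq series, 19448 lay on the large chromosome arms 2L, 2R, 3L and 3R and on X. Of these, 1663 shared at least 1 bp with a cluster in the list of replicate 1 and at least 1 bp with a cluster in the list of replicate 2. They were chosen by these overlaps alone, not by score, make up 8.55% of the clusters on the 5 arms, and are called doubly called regions here. A further 4045 clusters were touched by replicate 1 only, 3790 by replicate 2 only and 9950 by neither. Chromosome 4, the heterochromatin sequences and the unplaced sequence U were left out.

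The libraries came from whole wild-type larvae of the Oregon-R strain in the 3rd instar, and all groups share this strain and stage. There are 2 libraries precipitated with a rabbit polyclonal antibody against residues 1 to 150 of POF and 2 input libraries, numbered 1 and 2 in the titles. The deposited descriptions follow the replicate number instead: those of ChIP replicate 1 and input replicate 1 both name the POF antibody, and those of ChIP replicate 2 and input replicate 2 both read only as input DNA. Titles and source names agree on which library is which and were followed, and the values given for replicate 2 rest on that choice. Nothing in the labels says whether the replicates are separate collections of larvae, and differences between them may be technical. Input libraries were not analysed here. Without read counts in the lists, the depth of each library is unknown.

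POF is an RNA-binding protein that coats chromosome 4 on polytene chromosomes and binds nascent transcripts of active genes there. It is found there together with the heterochromatin protein HP1a and the histone methyltransferase Setdb1, and is often compared with the male dosage compensation system of the X chromosome. Away from chromosome 4, its best known binding lies on X near the roX genes, which encode the non-coding RNAs of that system. The regions described here lie outside the chromosome for which the protein is named. The genome release of the lists is FlyBase release 5, and the gene table used is of release 6, so no gene was placed in any region and no sequence is shown.

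The doubly called regions were spread over all 5 arms at between 10.0 and 16.6 per Mb. Arm 3R held 438, or 8.51% of its 5149 clusters (exact 95% interval 7.76% to 9.30%). Arm 2R held 350 (8.81%, 7.95% to 9.74%) and had the highest density, 16.6 per Mb. Arm 3L held 340 (8.78%, 7.91% to 9.72%) and 2L held 310 (9.11%, 8.16% to 10.1%). X held 225 of 3053 clusters (7.37%, 6.47% to 8.35%) and had the lowest density, 10.0 per Mb. X has 18.8% of the sequence of these arms and 15.7% of their clusters, and it held 13.5% of the doubly called regions. These intervals cover counting error only, and neighbouring clusters are not independent of each other. The regions span 6588199 bp, which is 5.53% of the 5 arms and 17.9% of the bases in combined clusters.

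The doubly called regions were long, and the rule itself favours length, because a longer interval is touched more easily. Their median length was 3485 bp, against 1454 bp for the other clusters of the same arms. The 10th and 90th percentiles were 2036 bp and 6465 bp, and the shortest measured 1195 bp. Per arm the median ran from 3243.5 bp on 3L to 3634 bp on 2R. Among clusters under 1500 bp, 12 of 9391 (0.13%) were doubly called. The share was 2.81% from 1500 bp to under 2000 bp (131 of 4657) and 15.3% from 2000 bp to under 3000 bp (481 of 3149). It was 33.7% from 3000 bp (406 of 1205), 53.6% from 4000 bp (414 of 772) and 79.9% at 6000 bp or more (219 of 274). The rise over the length classes was present on each arm. In each length class from 2000 bp up, X had the lowest share of the 5 arms. Its share was 44.0% between 4000 bp and 6000 bp, where 2L reached 59.7%.

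**Figure D1:**
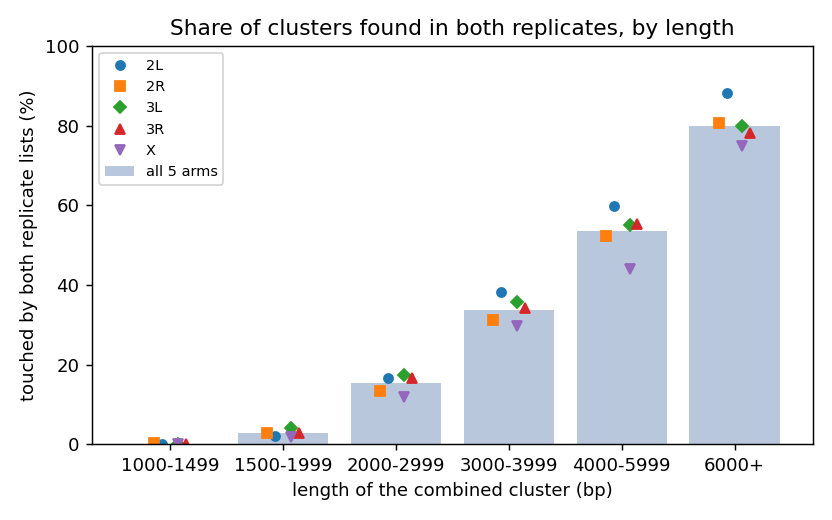
Share of combined clusters touched by both replicate lists (y axis, %) by length of the combined cluster (x axis, bp); bars pool the 5 arms and symbols give each arm. The pooled share goes from 0.13% in the shortest class to 79.9% in the longest, and X lies lowest in the 4 classes from 2000 bp up.

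Most of these regions correspond to a single cluster in each replicate. A single cluster of each list touched 1364 of the 1663 regions (82.0%), and 55 (3.31%) were touched by several clusters of both lists. Behind the regions stand 1848 clusters of replicate 1, 30.3% of its 6092 on these arms, and 1836 of replicate 2, 32.9% of its 5577. Neighbouring regions share few of them: 22 regions have the same leading replicate 1 cluster as another region, and 26 the same leading replicate 2 cluster. The leading cluster is the one that shares the most bases with the region. Its median length was 1785 bp in replicate 1, where the whole list had 1597 bp, and 2285 bp in replicate 2, where the whole list had 1985 bp. In 1418 regions (85.3%) the combined interval was longer than the leading cluster of either replicate. In 1213 (72.9%) the replicate 2 cluster was longer than the replicate 1 cluster.

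The replicates filled the regions to different extents. Clusters of replicate 1 covered a median of 56.1% of a region (quartiles 41.2% and 73.7%), and clusters of replicate 2 covered 73.1% (55.3% and 89.8%). Over all bases of the regions, the shares were 52.1% and 69.2%. Bases lying in both lists made up 35.7%. Replicate 2 covered more than 90% of 410 regions, and replicate 1 did so for 109. With length the covered share in replicate 1 went down, from a median of 70.0% between 2000 bp and 3000 bp to 36.1% at 6000 bp or more. In replicate 2 the corresponding values were 77.3% and 70.5%.

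**Figure D2:**
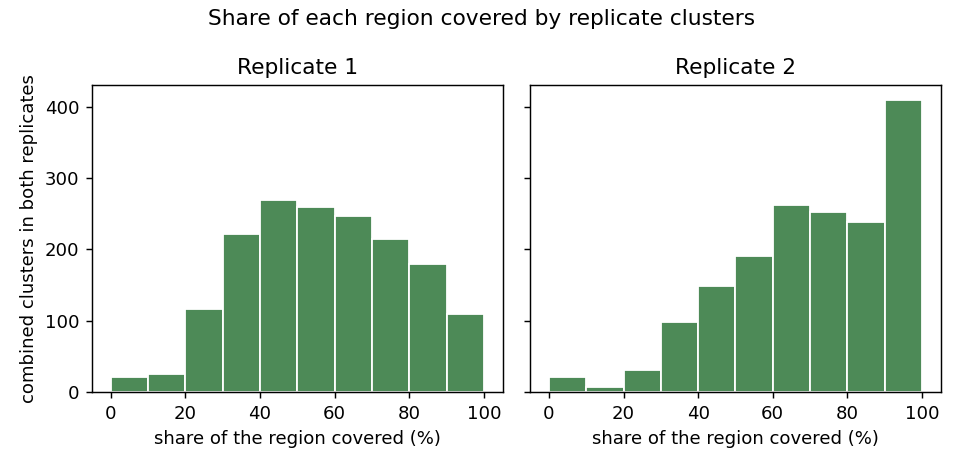
Number of doubly called regions (y axis) by the share of their bases covered by clusters of replicate 1 (left) and replicate 2 (right; x axes, %). Replicate 2 has its highest bar above 90%, whereas replicate 1 is spread around its median of 56.1%.

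The centres of the leading clusters of both replicates lay a median of 691.5 bp apart, and within 500 bp of each other in 700 regions (42.1%). At least 1 base was covered by both lists in 1551 regions (93.3%). In the other 112 regions the replicate clusters lay side by side inside the same combined interval without a common base. Those 112 were longer, with a median of 4523 bp against 3413 bp, and scored lower, with a median of 0.45 against 0.54. Of the bases called in both lists, 2349410 of 2350827 bp (99.9%) fell in the regions. By the rule, a combined cluster that holds such a base is always a doubly called region. The share therefore shows only that few such bases lay outside the combined clusters.

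The score of a cluster is the authors' own value, whose scale and reference are not stated, so scores are compared as differences or ranks within 1 list. In the combined list the doubly called regions had a median score of 0.53, against 0.43 for the other clusters. The 90th percentile was 1.02 in the regions, 0.59 in clusters touched by replicate 2 only, 0.51 in those touched by replicate 1 only and 0.52 in those touched by neither. The highest score of a region was 2.09 and the lowest 0.19. The scores come from the same libraries that chose the regions, so these values describe them and no test was made.

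The lists of the 2 replicates ranked the same regions differently. In replicate 1 the leading clusters had a median score of 0.63, equal at this rounding to that of the whole list, and a median rank at the 49.6 percentile. In replicate 2 the median score was 0.70 against 0.62 for the whole list, and the median rank was at the 66.4 percentile. The top 10% of the replicate 2 list supplied the leading cluster of 399 regions (24.0%), and its bottom 10% that of 56 (3.37%). In replicate 1 the corresponding numbers were 188 (11.3%) and 192 (11.5%). Ranks in replicate 1 were thus spread over the whole list, while those in replicate 2 were weighted to the top.

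**Figure D3:**
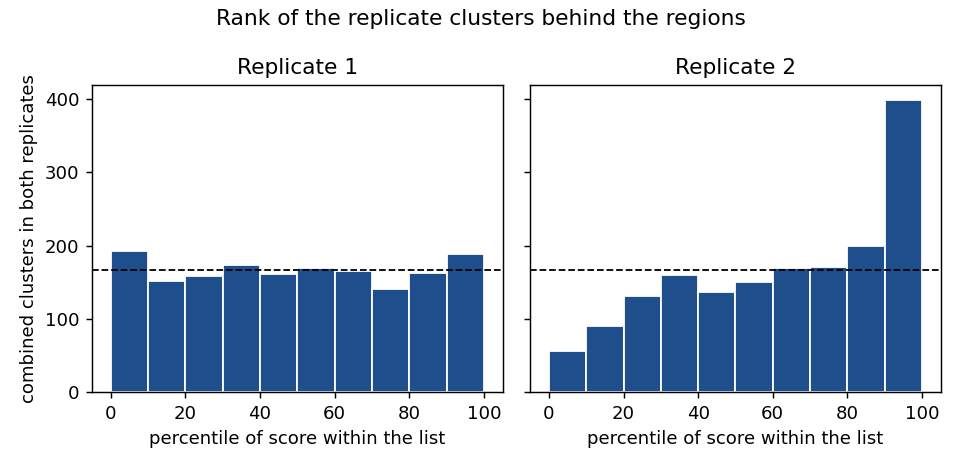
Number of doubly called regions (y axis) by the percentile of their leading cluster's score within the list of replicate 1 (left) or replicate 2 (right; x axes); the dashed line marks an equal number in each bar. Replicate 2 has 399 regions in its top 10% and 56 in its bottom 10%, replicate 1 has 188 and 192.

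With length taken into account the same contrast remained. Replicate clusters that touch a doubly called region were compared with the other clusters of the same list, arm and length class. The difference in score was -0.019 in replicate 1 and 0.098 in replicate 2, so the replicates pointed in opposite directions. Their mean was 0.039 ± 0.083 (SD, n = 2), so the mean lies within 1 SD of 0. The lists differ in score range, with 90th percentiles of 0.77 in replicate 1 and 1.06 in replicate 2. The mean over both lists is therefore only a rough summary. Across the 1663 regions, the combined score followed the replicate 2 score (Spearman's rho 0.87) more closely than the replicate 1 score (0.28). The replicate scores had a rho of 0.15 with each other. These coefficients run over regions of the same libraries, which are not independent, and are given as descriptions. In the 416 regions with the highest combined scores (0.72 or more), leading clusters had a median rank at the 95.7 percentile in replicate 2 and at the 60.2 percentile in replicate 1.

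Within length classes, the difference in combined score depended on length. For clusters of 2000 bp or more, doubly called regions had the higher median in 20 of 20 combinations of arm and length class, with differences from 0.024 to 0.15. Pooled over arms, the medians were 0.52 against 0.45 from 2000 bp to under 3000 bp and 0.61 against 0.52 at 6000 bp or more. Below 2000 bp the median was higher in 3 of 10 combinations, and the 12 regions under 1500 bp had a median of 0.36 against 0.42. Averaged over arm and length class with the regions as weight, the difference was 0.068. It was 0.016 and 0.017 for clusters chosen by replicate 2 alone and by replicate 1 alone. It was 0.15 when the replicate clusters had to score at or above their list's median. That last setting chooses regions by score, so it favours high combined scores by itself. By arm, under the rule used throughout, the difference ran from 0.047 on 2R to 0.089 on X. The upper quartile differed more than the median: from 2000 bp to under 3000 bp it was 0.71 in the regions and 0.50 in the others.

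**Figure D4:**
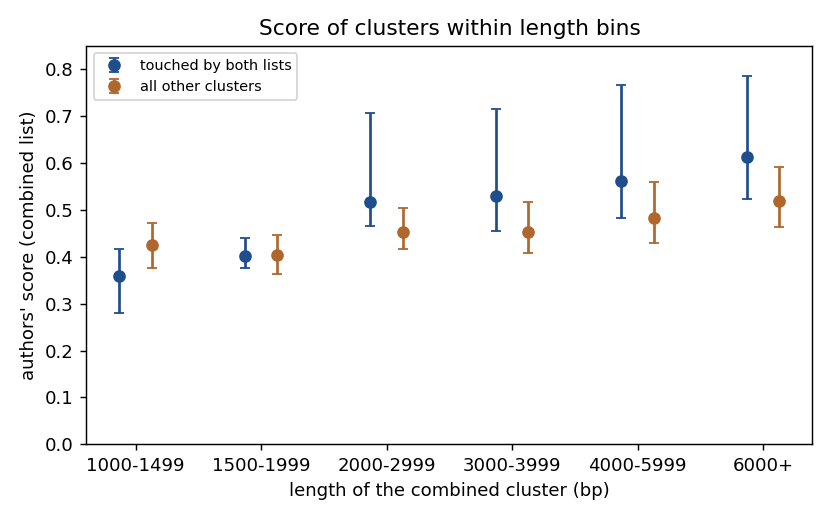
Median of the authors' score in the combined list (y axis) by cluster length (x axis, bp) for doubly called regions and all other clusters of the same arms; bars run from the lower to the upper quartile. From 2000 bp up the regions have the higher median in each class, and below 1500 bp the lower one (0.36 against 0.42).

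In the classes from 2000 bp up, clusters touched by replicate 2 only came nearer in score to the doubly called regions than those touched by replicate 1 only. From 1500 bp to under 2000 bp it was the reverse, with medians of 0.403 in the regions, 0.416 with replicate 1 only and 0.379 with replicate 2 only. Between 4000 bp and 6000 bp the median score was 0.56 in 414 doubly called regions, 0.52 in 248 clusters touched by replicate 2 only and 0.45 in 92 touched by replicate 1 only. The 18 clusters of this length touched by neither had a median of 0.40. At 6000 bp or more every combined cluster was touched by at least 1 list: 219 by both, 44 by replicate 2 only and 11 by replicate 1 only.

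X differed from the autosomal arms in score level. Its 225 regions had a median combined score of 0.62, whereas the medians of the other arms lay between 0.51 and 0.53. The other clusters of X also scored higher, with a median of 0.50 against 0.42 on each of the 4 autosomal arms. In replicate 1 the X regions had a median score of 0.71, at the 79.1 percentile of the list, below the 84.2 percentile of all replicate 1 clusters on X. In replicate 2 the median was 0.86, at the 82.2 percentile, above the 67.3 percentile of all replicate 2 clusters on X. Relative to all clusters of X in the same list, its regions thus ranked lower in replicate 1 and higher in replicate 2. This was not particular to X. In replicate 1 the regions also ranked lower on 2L (43.9 against 45.0) and 3L (41.6 against 43.9). In replicate 2 they ranked higher there (67.9 against 45.9, and 58.7 against 43.2). On 2R and 3R the regions ranked higher in both replicates.

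Regions that stood in the top 10% of both replicate lists numbered 93 (5.59%). X held 25 of them, which is 11.1% of its regions, and the autosomal arms held between 3.53% (3L) and 5.94% (3R) of theirs. Percentiles were ranked over all arms together, and the clusters of X ranked high as a whole. In replicate 1 their median percentile was 84.2, against 43.8 to 50.6 on the autosomal arms. In replicate 2 it was 67.3, against 43.2 to 46.5. How much of the higher share on X goes with this level was not tested. The 93 regions had a median length of 4020 bp and median scores of 1.29 (combined), 0.92 (replicate 1) and 1.73 (replicate 2). Replicate 1 covered a median of 69.7% of their bases and replicate 2 88.8%. Of these, 41 (44.1%) had no other region within 20000 bp and 26 (28.0%) belonged to groups of 3 or more regions linked by such gaps, against 36.3% and 40.6% of all regions. The mix of arms differs, since X held 26.9% of the 93 and 13.5% of all regions. Of all X regions, 41.3% were single and 32.0% lay in such groups. How much of the contrast goes with the mix of arms was not tested.

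The regions with the highest mean percentile over the 3 lists were led on each arm by clusters of 2899 to 5788 bp. On 3L the region at 6597736 to 6601826 had a combined score of 2.04, a replicate 1 score of 1.46 and a replicate 2 score of 2.77. On 3R the region at 9483608 to 9488081 scored 2.09, 1.24 and 2.94 in the same order. On 2R the region at 13028670 to 13034457 scored 2.00, 1.35 and 2.51. The lowest percentile of these 3 in any of the 3 lists was 99.8. On X the leading region, at 2624582 to 2628986, had scores of 1.68, 1.09 and 2.45. On 2L it was at 21213286 to 21216184, with 1.67, 1.06 and 2.22.

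The regions that came next on each arm were chosen by the same mean percentile, so their high ranks follow from that choice. On 3R they lay at 26631406 to 26635460, which had the highest replicate 1 score among those named here (1.64), and at 1042125 to 1050550. On 3L they lay at 13027888 to 13038973 and at 20518202 to 20520958. The first of these is 11086 bp long and had scores of 1.40 (combined), 1.44 (replicate 1) and 2.23 (replicate 2). On 2R they lay at 16447781 to 16451193 and 10389967 to 10394606, on X at 16533515 to 16537602 and 6736307 to 6741531, and on 2L at 13214812 to 13218480 and 896783 to 902694. In the last of these the replicate clusters nearly coincided, at 897614 to 902656 in replicate 1 and 897636 to 902685 in replicate 2. The lowest percentile of these 10 in any list was 98.6.

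The longest region of each arm scored between the 93.4 percentile (2L) and the 98.5 percentile (3R) of the combined list, below the leading regions named above. The longest of all, on X at 1764815 to 1785284 (20470 bp, score 0.96), was touched by 3 clusters of each replicate, which covered 41.8% and 65.7% of it. On 2L the longest, at 555601 to 572409 (16809 bp, score 0.60), was also touched by 3 clusters of each list, covering 44.3% and 50.8%. On 3L the region at 21814008 to 21828642 (14635 bp, score 0.72) was a single cluster of 13322 bp in replicate 2 and 3 clusters in replicate 1. On 2R the longest was at 10737272 to 10751891 (14620 bp, score 0.63) and on 3R at 23739531 to 23751993 (12463 bp, score 0.98).

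The second longest regions were covered more by replicate 2 than by replicate 1. On 3L the region at 5755800 to 5767320 (11521 bp) was covered to 97.7% by replicate 2 and to 12.1% by replicate 1. On 2L the region at 4450604 to 4463188 (12585 bp) was covered to 96.1% and 43.1%, and on 3R the one at 1291516 to 1303918 (12403 bp) to 83.7% and 31.0%. On 2R the region at 20662900 to 20674801 (11902 bp) was covered to 51.1% by replicate 2 and 23.8% by replicate 1. On X the region at 6710309 to 6722890 (12582 bp) was covered to 42.9% and 30.1%.

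Doubly called regions lay close to each other. Measured edge to edge, the median distance to the nearest other region on the same arm was 11404 bp, and from the other clusters to the nearest region it was 24899 bp. With replicate clusters at or above their list's median score, 613 regions remained, and the distance between them was 38383 bp. Part of the contrast with the other clusters goes with length, because long clusters lie nearer to the regions whether or not they belong to them. For clusters of 2000 bp or more, the medians were 11342.5 bp for 1520 regions and 17300.5 bp for 3880 other clusters. By length class they were 16927 bp against 18577.5 bp from 2000 bp, 11532.5 bp against 15809 bp from 3000 bp, 7734 bp against 12189 bp from 4000 bp, and 7606 bp against 12039 bp at 6000 bp or more. The distance was shorter for the regions in 16 of 20 combinations of arm and length class from 2000 bp up. The exceptions were 2L and 3L at 6000 bp or more, with 5 and 9 other clusters, 3R from 2000 bp to under 3000 bp and 3R from 4000 bp to under 6000 bp.

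**Figure D5:**
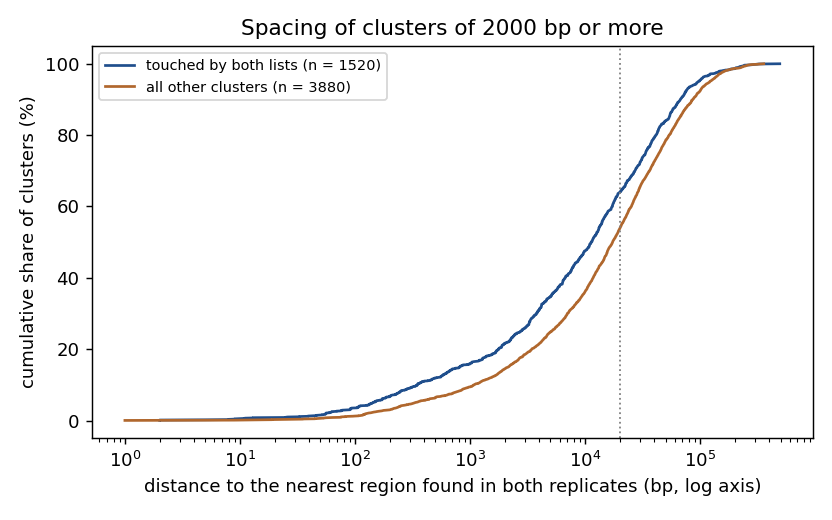
Cumulative share of clusters of 2000 bp or more (y axis, %) by edge-to-edge distance to the nearest doubly called region (x axis, bp, log scale), for 1520 regions and 3880 other clusters; the dotted line marks 20000 bp. The curve of the regions lies to the left of the other, with medians of 11342.5 bp and 17300.5 bp.

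In the order of clusters along an arm, 14.9% of the regions were followed directly by another region, against 7.96% of the other clusters. At equal length the contrast was widest in the shortest classes, 41.7% against 6.53% under 1500 bp, where there were 12 regions, and 19.1% against 8.36% from 1500 bp. It was small in the middle classes, 10.4% against 10.0% from 2000 bp and 12.8% against 12.8% from 3000 bp. In the longest classes it was 17.4% against 13.4% from 4000 bp and 20.1% against 12.7% at 6000 bp or more. Short regions lay beside others: 9 of the 12 under 1500 bp, or 75%, had a neighbouring combined cluster within 100 bp, against 5.67% of the other clusters of that length. The rule can itself make neighbours, because a single replicate cluster can touch adjoining combined clusters. In replicate 1, 13 clusters touched more than 1 region, and in replicate 2, 18 did. How much of the contrast in the short classes arises this way was not tested.

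Linking regions with gaps of at most 20000 bp gave 970 units. Of these, 604 were single regions (36.3% of all regions), 192 were pairs, and 174 were groups of 3 or more with 675 regions (40.6%). This share depends on the link chosen: it was 22.7% with gaps of at most 10000 bp and 69.2% with 50000 bp. It was 12.2% when the replicate clusters had to score at or above their list's median, which left 613 regions. For the 5453 to 5708 clusters chosen by 1 replicate list alone it was 78.8% or more. With the link fixed, the share also depends on how many regions there are. The groups of 3 or more had a median span of 31260.5 bp, from 9193 to 106831 bp, and took up 5.23% of the arms. Within their spans 47.7% of the combined clusters were doubly called, and in 21 groups no other cluster intervened. Each span begins and ends on a region and holds at least 3, so the way the groups were built raises this share. The share of regions in such groups was lowest on X (32.0%) and highest on 3L (46.5%). Grouped regions were longer than single ones, with medians of 3750 bp and 3141 bp, whereas median scores were alike at 0.53 in both.

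The group with the most regions lay on 3R at 11020247 to 11105162, where 10 of 20 combined clusters were doubly called over 84916 bp. Their combined scores ran from 0.40 to 1.41. The strongest, at 11053401 to 11056812, scored 0.78 in replicate 1 and 1.92 in replicate 2. The next, at 11066518 to 11072302, had a combined score of 1.23, with 0.73 in replicate 1 and 1.73 in replicate 2. A pair of regions in the group barely touched replicate 2, at 11085891 to 11087739 (0.54% of its bases) and at 11040567 to 11043752 (2.82%), each through the cluster that also touched its neighbour.

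The leading groups of the other arms held between 7 and 9 regions. On 3L, 9 of 23 clusters at 1718551 to 1804974 were doubly called, with combined scores between 0.39 and 0.60. On 2L, 8 of 16 clusters at 11996708 to 12064779 were doubly called. Here the adjoining regions at 11999557 to 12009713 and 12009725 to 12013088 had combined scores of 1.16 and 1.10, replicate 1 scores of 0.74 and 0.74, and replicate 2 scores of 1.59 and 1.44. On 2R, 8 of 24 clusters at 19919007 to 20025837 were doubly called, and the highest score was 1.21, at 19953597 to 19958299. On X, 7 of 20 clusters at 2096136 to 2172052 were doubly called, with scores from 0.51 to 0.92. In none of these groups, nor in the 3R group above, did the highest scores of both replicates fall on the same region. On X, for example, the highest replicate 1 score (0.99) was at 2118978 to 2122968 and the highest replicate 2 score (1.29) at 2154655 to 2158243.

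At the other extreme, 76 regions (4.57%) lay 100000 bp or more from any other. The most isolated was on 3L at 24457121 to 24463583, close to the centromere-proximal end of the assembled arm and 491568 bp from the next. Its combined score was 0.42, with 0.57 in replicate 1 and 0.52 in replicate 2. On X the most isolated lay at 20901114 to 20903175 (306765 bp away), on 2R at 15612726 to 15615767 (281590 bp), on 3R at 8810880 to 8816520 (270007 bp) and on 2L at 8995570 to 8998969 (240447 bp). The isolated region on 2R scored 1.60 in the combined list and 2.05 in replicate 2 but 0.53 in replicate 1, where it ranked at the 15.3 percentile.

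Along the arms the regions were present throughout, with local differences in density. Each of 117 full windows of 1 Mb held at least 2 regions, with a median of 14. The fullest, on 3L at 1000001 to 2000000, held 32 regions among 215 clusters. It was followed by 2R at 19000001 to 20000000, with 30 of 219, and 3R at 20000001 to 21000000, with 29 of 190. The emptiest, on 2L at 17000001 to 18000000, held 2 of 83. The windows were picked for their counts. Each arm was also divided into 10 equal parts, counted from the end far from the centromere. The first part held 234 regions among 2318 clusters over all arms (10.1%), the ninth part 195 among 2060 (9.47%) and the last part 121 among 1609 (7.52%). The first part was above its arm's average share on X (10.8%), 2L (11.8%), 2R (11.4%) and 3L (11.6%), and below it on 3R (6.10%). The last part was above the average share on 2L (9.72%) and 2R (9.12%) and below it on 3L (6.43%), 3R (7.51%) and X (4.59%), so the share did not decline evenly towards the centromere.

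The threshold of 1 bp mattered for few regions. The narrowest inclusion was on 2R at 19677631 to 19679249, which shared 1 bp with replicate 1. It was followed by 3L at 6959079 to 6961077 and 3R at 23109378 to 23113056, which shared 2 bp and 3 bp with replicate 2. The narrowest exclusions were on 3R at 14067134 to 14071498, which abutted a replicate 1 cluster, on 2L at 13398604 to 13400155, 4 bp from one, and on 3L at 19618244 to 19620053, 5 bp from one. Of the regions, 31 shared under 100 bp with a list, and 63 excluded clusters lay within 100 bp of the list they missed. The smaller of the shared lengths was at least 500 bp in 1608 regions (96.7%) and had a median of 1614 bp.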

How the data were processed

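POF ChIP-seq was represented by 3 lists of enriched clusters, 1 per ChIP library and 1 combined list of the replicate set. The submitters' processing notes name Bowtie 0.12.7 as aligner. Per the file headers, positions refer to FlyBase release 5. The deposited lists carry 1 score per cluster, given by the authors. Not given in the sources used here are the score's scale, the caller, its threshold, the input used and the way the combined list was made. The 1 row named as depleted was left out.

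Regions were chosen by overlap of at least 1 bp with each replicate list, with pandas 2.3.3 and numpy 2.4.6 under Python 3.11.15, intervals with scipy 1.17.1 and figures with matplotlib 3.10.9. Length classes had lower edges of 1000, 1500, 2000, 3000, 4000 and 6000 bp. Percentiles are ranks within a list on the 5 arms. Exact 95% intervals are Clopper-Pearson. The counting was tested on simulated lists. No test was made, since the 3 lists chose the regions. Regions were named by a rule: on each arm the 3 with the highest mean percentile, the 2 longest, the group with the most regions and the most isolated, and over all arms the 3 nearest inside and outside the overlap threshold. The regions, classes and rules were chosen with earlier results of these data known.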

Additional observations from a re-analysis of the deposited data

Results flagged for a closer look

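Outside the 5 arms and chromosome 4, 47 of 969 combined clusters on the heterochromatin sequences and U were also touched by both replicate lists. That is 4.85%, a smaller share than the 8.55% on the 5 arms. The shares are not matched for cluster length, with which the share on the arms rose steeply. These 47 clusters drew attention as signal in sequence that the report does not use. Their background in control libraries was not analysed here.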

How the results depend on the processing

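No paired analysis was possible because the 3 lists analysed here are all of ChIP libraries and no result comes from a test. The score difference within length classes kept its sign in all 10 alternatives, from 0.016 to 0.15 around the reported 0.068. The value of 0.15 came from requiring replicate clusters at or above their list's median score, which favours high scores by itself. Each shift was smaller than 0.083, the SD between replicates (n = 2) given above, and that SD is wider than the value itself. The SD belongs to another measure, the score difference among clusters of the replicate lists. It therefore does not give the spread of the combined-list difference. Length classes 250 bp wide, added after the data were seen, gave 0.077. The other results moved as follows, and the cause was not tested. Requiring replicate clusters at or above their list's median score left 613 regions, with a median length of 4088 bp, a median gap of 38383 bp, 5.87% followed by a region (regions were 3.15% of clusters) and 12.2% in groups. Merging clusters within 1000 bp gave a median length of 5935 bp, a gap of 12047 bp, 19.6% followed by a region (12.9% of clusters) and 38.2% in groups. Keeping the higher-scoring 50% of combined clusters gave a gap of 13862.5 bp, 23.8% followed (14.2% of clusters) and 33.6% in groups. Requiring a base covered by both lists gave a gap of 12538 bp and 37.4% in groups. Overlap of at least 50% of the shorter cluster gave a gap of 12101 bp, and leaving out X gave 10919.5 bp. Linking gaps of 10000 and 50000 bp put 22.7% and 69.2% of regions in groups. With 1 replicate list left out, 5453 to 5708 clusters remained, with median lengths of 1988 to 2285 bp, gaps of 2516 to 3981 bp, 33.7% to 40.5% followed by a region, 78.8% to 80.7% in groups and score differences of 0.0157 to 0.0166. The depth is unknown, so a region touched by 1 list cannot be called absent from the other library.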

Other observations

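The single region called depleted in the combined list, on 2L at 13370022 to 13371374 (score -0.036), lay wholly inside an enriched cluster of replicate 2 at 13370004 to 13371434. That cluster scored 0.095, at the 0.054 percentile of its list. The nearest doubly called region was 96 bp away and the nearest replicate 1 cluster 895 bp away. It was picked out for this position.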
